A study of Rattus norvegicus with 2 samples.

Results

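Tubulin isotypes are the near-identical α- and β-tubulin proteins, each from its own gene, that pair into the building blocks of microtubules. The 10 genes described here (Tuba1a, Tuba1b, Tuba1c, Tubb2a, Tubb2b, Tubb3, Tubb4a, Tubb4b, Tubb5 and Tubb6) were taken by their rat RefSeq accessions, and were chosen by name, except that Tubb4a was selected on its low signal with melatonin. All 10 were found, on 12 probes and 21 spots, and all 12 probes were well above background on both arrays, as were 8231 genes with a symbol in all. The cells were primary rat dental papilla cells, the tooth mesenchyme from which odontoblasts arise, taken at postnatal days 1 to 3 and used at passages 3 to 4. One group was held for 3 days in odontogenic induction medium (OS), and the other in the same medium with 10 nM melatonin, the pineal hormone. Both media held 8% serum and the steroid dexamethasone (0.1 mM), with ascorbic acid (0.2 mM) for collagen and β-glycerophosphate (10 mM) as a phosphate source, as labelled. Each group was read on 1 one-colour Agilent array, so the spread between cultures was not measured, no test between the groups was made, and every ratio compares these 2 arrays. The labels do not say how many cultures stand behind an array. The share of all probes well above background was 55.2% with OS and 48.4% with melatonin.

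Microtubules carry cargo, build the mitotic spindle and the cilium, and give long polarised cells such as odontoblasts their shape. Cells choose among tubulin genes by tissue: Tuba1b, Tubb5 and Tubb4b serve most cell types, Tuba1a, Tubb2a, Tubb2b and Tubb3 are abundant in neurons, and Tubb4a is best known from brain and oligodendrocytes. Free tubulin also limits its own messenger RNA, through decay during translation, which acts on α- and β-tubulin messages together.

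The 250 bases before the annotated start are given, 5′ to 3′ on the gene's strand, from RefSeq's promoters of build GRCr8, where all 10 genes matched. They are shown for Tubb4a, the isotype that stood apart, and for 3 β-tubulin genes whose signals stayed close between the arrays, Tubb4b, Tubb2a and Tubb5. Capitals mark the searched motifs on either strand, namely TATAA of the core promoter, the box CCAAT of the factor NF-Y, the box GGGCGG of Sp1, TGACG with its longer form TGACGTCA (which holds the shorter motif on both strands), and the E-box CACGTG.
Tubb4a: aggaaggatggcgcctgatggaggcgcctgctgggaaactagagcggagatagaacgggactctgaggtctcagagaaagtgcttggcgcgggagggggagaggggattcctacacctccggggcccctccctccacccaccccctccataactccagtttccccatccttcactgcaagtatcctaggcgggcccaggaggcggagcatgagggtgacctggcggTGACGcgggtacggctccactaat
Tubb4b: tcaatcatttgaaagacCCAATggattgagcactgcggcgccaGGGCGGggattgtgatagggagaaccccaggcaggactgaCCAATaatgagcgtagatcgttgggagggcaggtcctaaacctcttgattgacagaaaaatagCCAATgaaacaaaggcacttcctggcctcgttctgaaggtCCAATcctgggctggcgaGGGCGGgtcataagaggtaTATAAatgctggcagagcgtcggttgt
Tubb2a: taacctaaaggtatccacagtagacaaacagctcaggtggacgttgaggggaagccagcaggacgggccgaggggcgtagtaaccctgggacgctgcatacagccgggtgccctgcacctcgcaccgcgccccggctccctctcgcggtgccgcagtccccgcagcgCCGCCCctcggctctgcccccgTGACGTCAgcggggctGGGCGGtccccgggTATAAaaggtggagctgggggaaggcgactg
Tubb5: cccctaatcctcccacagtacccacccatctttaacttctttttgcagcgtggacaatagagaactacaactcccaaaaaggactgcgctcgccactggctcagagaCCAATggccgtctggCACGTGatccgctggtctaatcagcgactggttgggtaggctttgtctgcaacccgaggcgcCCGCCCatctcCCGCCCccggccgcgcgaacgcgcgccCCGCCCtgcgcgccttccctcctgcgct
These windows lie at chr9:2012282-2012531 (minus strand) for Tubb4a, chr3:28438456-28438705 (minus strand) for Tubb4b, chr17:31001936-31002185 (plus strand) for Tubb2a and chr20:2917327-2917576 (plus strand) for Tubb5.

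The Tubb4a window held 1 TGACG, its first base 24 bases before the start, and none of the first 3 motifs. It was the 1 window of the 10 without any of those 3, against 32.1% of all 33469 promoter entries. TATAA was found in 5 of the 10 windows (24.0% of all entries), CCAAT in 8 (34.0%), GGGCGG in 8 (30.5%) and TGACG in 3 (18.2%). The Tubb2a window held TGACGTCA, the letters bound by the cAMP-responsive factor CREB, as did 1.59% of all entries, and the Tubb5 window held CACGTG, as did 5.59%. These are matches of letters alone.

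The Tubb4a probe was the isotype probe that differed most between the arrays. Its processed signal, the spot brightness after background subtraction, was 5022 with OS and 911 with OS and melatonin. Both values lay far above the local background, with median spot brightness of 5280 over 22 on the first array and 1025 over 19 on the second. Without scaling, the OS signal was 5.51 times the melatonin signal. After each array was scaled to its 75th percentile (428 and 329), Tubb4a was 4.23-fold lower with melatonin, a log2 ratio of -2.08. This was the fourth lowest of the 8231 ratios, and since the gene was chosen for it, it is a description.

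**Figure D1:**
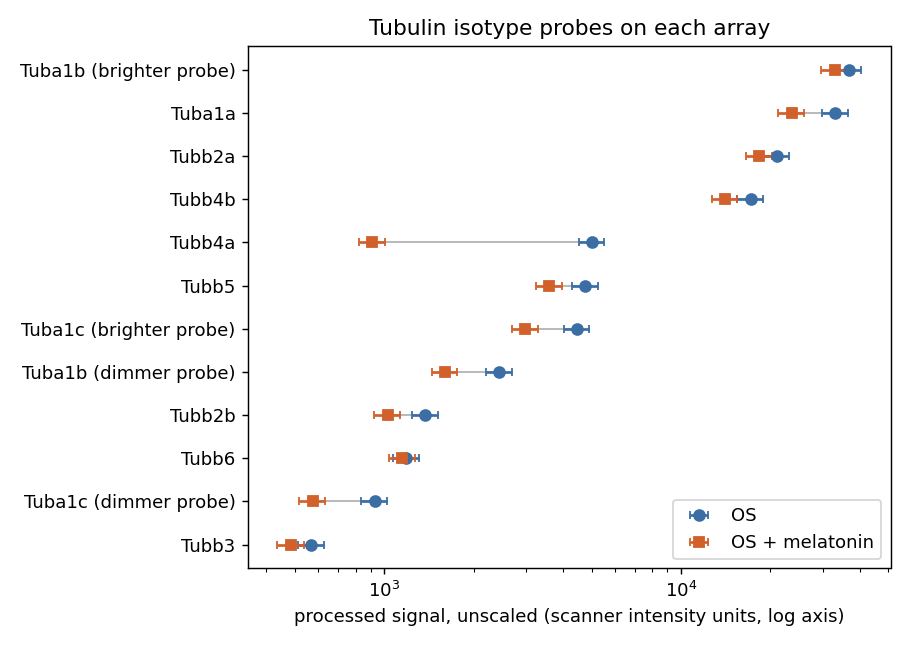
Processed signal of each tubulin isotype probe before scaling (log axis, scanner intensity units) on the OS array (circles) and the OS with melatonin array (squares), 1 array each, with bars for the scanner software's modelled error of about 10.0% per spot. Probes are ordered by OS signal, and Tubb4a goes from 5022 to 911 while the others shift far less.

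The 2-fold threshold was passed by 1 of the 10 isotypes on the lower side, Tubb4a, and by 0 on the higher side. Among all measured genes 0.705% were at least 2-fold lower and 0.255% at least 2-fold higher. At 1.5-fold the counts were again 1 lower, Tubb4a, and 0 higher, against 2.64% and 2.03% of all genes. Since Tubb4a was chosen for its ratio, nothing is read from the count of 1. The other 9 isotypes ran from a log2 ratio of -0.26 to 0.34, with a median of -0.0005 against 0.039 over all genes. That range held 79.3% of all genes. The median of all 10 was -0.011, and it turned above 0 in 3 of 12 alternative settings of the analysis, so the family as a whole had no settled direction.

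**Figure D2:**
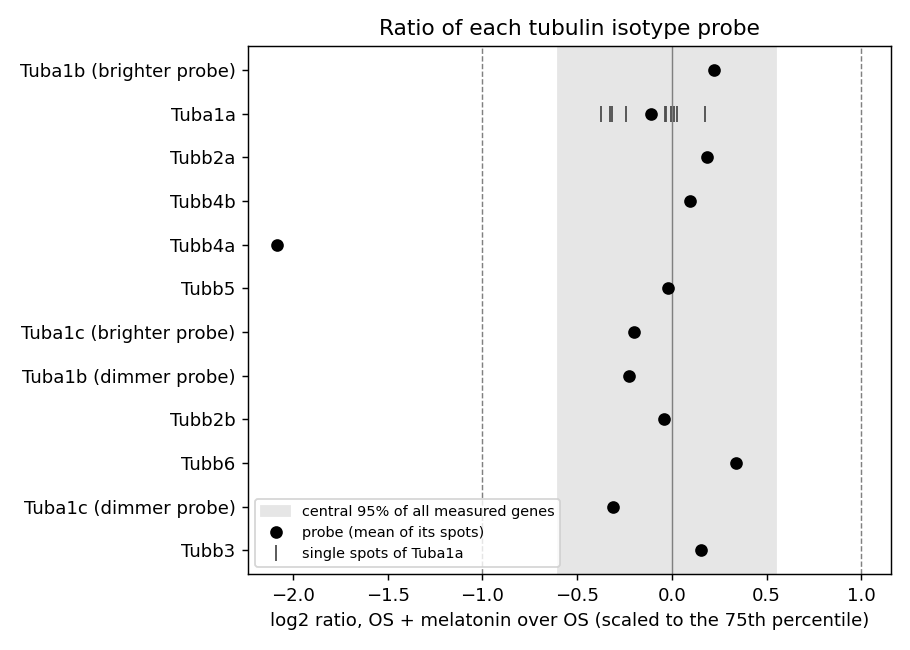
Scaled log2 ratio of OS with melatonin over OS for each isotype probe (points) and for the 10 single spots of Tuba1a (ticks), with the central 95% of all measured genes shaded, from -0.60 to 0.55, and dashed lines at 2-fold. Tubb4a lies at -2.08, outside the shading, and the other 11 probes lie inside it.

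Among the α-tubulins, Tuba1a, a major α-tubulin of developing neurons, was read by 10 spots. Their signals ran from 28860 to 37397 on the OS array and from 19831 to 28137 on the melatonin array, with means of 33175 and 23586, so the ranges did not overlap before scaling. After scaling the mean log2 ratio was -0.11 with an SD of 0.19 between spots. Tuba1b, the general α-tubulin, had 2 probes that disagreed. The brighter went from 36858 to 33062 (log2 ratio 0.22) and the dimmer from 2442 to 1604 (-0.23), so the gene's mean ratio was near 0. The spot of the brighter probe was flagged as a background outlier on the OS array. With such spots left out, an alternative chosen after seeing the data, only the dimmer probe remained, at -0.22. Tuba1c, a further broadly used α-tubulin, had 2 probes with the same direction. Its signals were 4466 and 2988 on one probe (log2 ratio -0.20) and 929 and 575 on the other (-0.31), and the gene's mean was 1.19-fold lower with melatonin.

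The 2 Tuba1b probes differed in OS brightness by 15.1-fold and the Tuba1c probes by 4.81-fold, although each pair names 1 gene. Probe brightness is therefore not a level of message, and the order of isotypes given here is an order of spots. Over all genes with 2 measured probes the log2 ratios of the pair differed by a median of 0.22, and in 462 of 1042 such genes (44.3%) the pair had opposite signs. Among the 10 genes Tuba1a, Tuba1b and Tubb4b have named pseudogenes in the GRCr8 table (5, 14 and 4), and the other 7 have 0. Probe sequences were not used here, so how far each probe also reads a related gene was not tested. Tuba1a and Tuba1b are next to each other in that table, and Tubb2b and Tubb2a are separated only by Tubb2al1.

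Of the 7 β-tubulins, 6 stayed within 1.5-fold. Tubb2a, a β-tubulin rich in neurons, had signals of 21077 and 18371, which after scaling is a log2 ratio of 0.18. Tubb4b, the broadly expressed relative of Tubb4a, went from 17169 to 14100 (0.097). Tubb5, the general β-tubulin of dividing cells, went from 4758 to 3598 (-0.022). Each of these 3 was lower in raw signal on the melatonin array, as the whole array was, and close to equal after scaling.

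The dimmer β-tubulin probes were Tubb2b, Tubb6 and Tubb3. Tubb2b, known from the developing cortex, went from 1376 to 1027 (log2 ratio -0.041). Tubb6, a β-tubulin found outside the nervous system, went from 1188 to 1151 and was the highest isotype after scaling, at 1.26-fold (0.34). Tubb3, the classical neuronal β-tubulin, went from 568 to 485 (0.15), and with normexp background correction its ratio was -0.048. Each was read by 1 spot, and over the 1020 probes with 8 or more usable spots the single spots had an SD of 0.18 around their probe's mean.

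**Figure D3:**
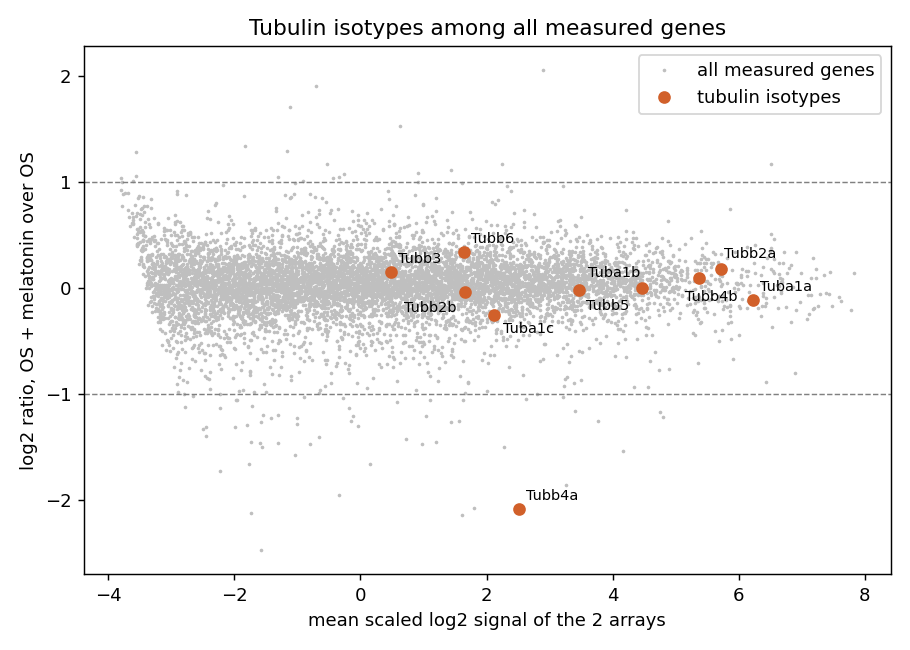
Log2 ratio of OS with melatonin over OS against mean scaled log2 signal for the 8231 measured genes (grey) and the 10 tubulin isotypes (orange), with dashed lines at 2-fold. Tubb4a lies at -2.08 and the other isotypes between -0.26 and 0.34.

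By brightness on the OS array the probes ran from the bright Tuba1b probe through Tuba1a, Tubb2a, Tubb4b, Tubb4a, Tubb5, the bright Tuba1c probe, the dim Tuba1b probe, Tubb2b, Tubb6 and the dim Tuba1c probe to Tubb3. The scanner software's modelled error (about 10.0% of each signal) overlapped in 4 of the 11 neighbouring pairs. These were Tuba1b with Tuba1a, Tubb4a with Tubb5, Tubb5 with Tuba1c, and Tubb2b with Tubb6. On the melatonin array Tubb4a moved from position 5 to position 10, next to Tubb2b, whose error overlapped its own. There too 4 of 11 neighbouring pairs overlapped, the other 3 being Tubb5 with Tuba1c, Tubb6 with Tubb2b, and the dim Tuba1c probe with Tubb3. Tubb2b and Tubb6 also exchanged places, within their errors, and the other probes kept their relative order. Even the dimmest, Tubb3, was brighter than 77.5% of all probes with OS and 78.4% with melatonin.

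Several measurements bear on the Tubb4a spot. Neither of its readings carried an outlier flag, and no spot on either array was saturated. The 264 measured spots within 10 rows and 10 columns of it had a median log2 ratio of 0.0009, with 90% between -0.51 and 0.36 and the lowest at -0.98. Repeated probes (8 or more usable spots) with an OS signal within 2-fold of Tubb4a's (192 probes, 1833 spots) had an SD of 0.19 between spots of a probe, and the largest deviation of any such spot was 0.86. Over all 9645 spots of repeated probes the largest deviation was 1.38. In the authors' deposited table the probe stood at 12.22 with OS and 10.15 with melatonin on a log2 scale, a difference of -2.07. That table processes the same spot on the same 2 arrays, so it is not a separate measurement. Between the 13544 measured probes spotted once, the SD of the log2 ratio was 0.38. Tubb4a was chosen for its low ratio, so none of these spreads is a test of it. Whether an error of its spot has a part in the ratio was not tested. The reading remains 1 spot on 1 array per group, and no second probe matched the gene.

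Tuba1a showed a split by place on the array, noticed after its values were seen. Its 4 spots at columns 6 to 42 had log2 ratios from -0.38 to -0.24, and its 6 spots at columns 61 to 84 had ratios from -0.035 to 0.18, without overlap. The means of the 2 sides differed by 0.34. Over the other repeated probes the same difference averaged -0.0084, and 30 of 824 with spots enough on both sides (3.64%) differed by at least as much. The spots around each Tuba1a spot had median ratios between -0.036 and 0.094, with no such gap between the sides. The direction of Tuba1a held in all 11 alternatives for single probes, but its size dropped to -0.014 when spots flagged as background outliers were also left out, an alternative chosen after seeing the data. Such flags were carried by 3 of the 4 spots at columns 6 to 42 and by 2 of the other 6.

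**Figure D4:**
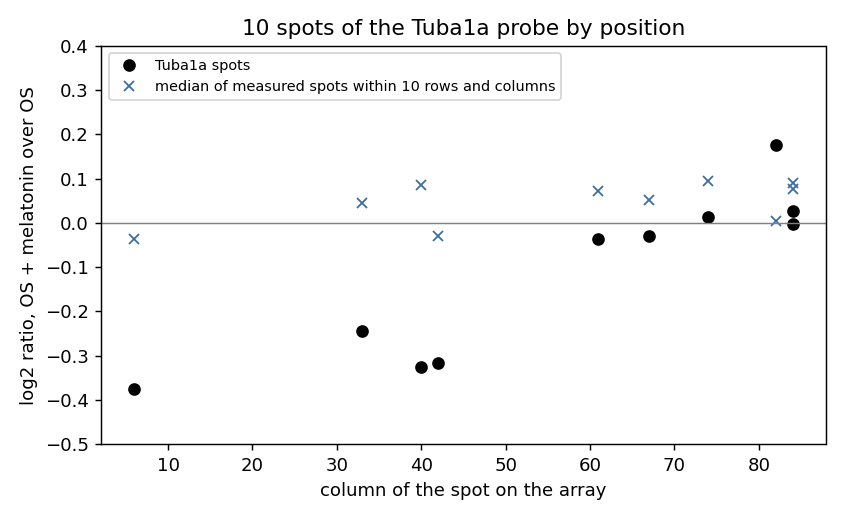
Log2 ratio of each of the 10 Tuba1a spots (points) against its column on the array, with the median ratio of the measured spots within 10 rows and 10 columns of it (crosses). The 4 spots at columns 6 to 42 lie below the 6 at columns 61 to 84.

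By the measure of likeness used, the distance between log2 ratios over the 2 arrays, the genes nearest to Tubb4a were Rps6kb1, Hmx1, Otor and RT1-CE4. Rps6kb1, the S6 kinase of the mTOR pathway, went from 3067 to 559 (0.0072 from Tubb4a). Hmx1, a homeobox factor of craniofacial development, went from 268 to 47.4 (0.035 away), and Otor, a secreted cartilage protein, from 2736 to 478 (0.052 away). RT1-CE4, a class I histocompatibility gene with near-identical relatives, went from 664 to 132 (0.13 away). Each rests on 1 spot, and 2 arrays cannot show a shared pattern beyond this 1 ratio.

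Of 10 other tubulin genes listed (specialised α-tubulins, the platelet β-tubulin and the γ-, δ- and ε-tubulins) 7 had a probe matched and 4 were measured with both media, with 0 past 2-fold and a median log2 ratio of 0.067. Tubg1, the γ-tubulin that starts new microtubules, had signals of 3016 and 2372 (log2 ratio 0.034). Tuba4a, an α-tubulin of muscle, brain and platelets, had 504 and 430 (0.15), and Tuba3a, a testis α-tubulin, had 68.2 and 42.6 (-0.30). Tuba3b and Tuba8 passed background with OS only, and no fold can be given for them. Tubal3 did not pass background with either medium.

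Tubulin reaches its folded state through prefoldin, the CCT chaperonin and the tubulin cofactors. Of 24 genes listed for this route 20 were measured, 0 passed 2-fold in either direction, and the median log2 ratio was 0.16 against 0.039 over all genes, with 12 of the 20 above the median of all genes. Without the filter on dim probes the list's median minus that of all genes was -0.017. The 8 CCT subunits measured, a subset chosen after its values were seen, all had ratios above 0, with a median of 0.29. That sign held in the 12 alternative settings, although the number above the median of all genes dropped to 6 without the filter on dim probes. Cct4 was 1.39-fold higher (signals of 2613 and 2791), and the prefoldin subunit Pfdn6 1.31-fold (392 and 393). Ttc5, which reads nascent tubulin chains to start decay of tubulin messages, had signals of 445 and 312 and a log2 ratio of -0.13.

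Enzymes that modify tubulin, such as tyrosine ligases and the α-tubulin acetyltransferase Atat1, were measured for 6 of 26 listed, with 0 past 2-fold. Their median was 0.15, and it was below 0 in 2 of 12 alternatives. Ttl, which restores the C-terminal tyrosine, was highest at 0.26 on a dim probe (73.4 and 67.5). Ttll12, a further member of the ligase family, stood at 0.18 (51.8 and 45.0) and Atat1 at -0.094. Genes of microtubule destabilisers and severing enzymes had 10 of 18 measured and 0 past 2-fold, with all 10 ratios above 0 and a median of 0.15. The share of all measured genes above 0 was 57.6%, and 67.9% without the filter on dim probes. Stmn1, which binds free tubulin dimers, was 1.58-fold higher, on a dim probe. Kif2c, a kinesin that takes microtubule ends apart, was 1.34-fold higher as the equally weighted mean of 2 dim probes (mean signals 50.7 and 52.0), with log2 ratios of 0.34 on 1 spot and 0.50 over 10.

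Microtubule-associated proteins had 22 of 32 measured, with 0 past 2-fold and a median of 0.057 that was below 0 in 2 of 12 alternatives. Map9 and Map1s were the largest, at 0.49 on a dim probe (37.1 and 40.2) and 0.47 (1707 and 1818). The γ-tubulin ring complex and its recruiters had 11 of 22 measured, with 0 past 2-fold and a median of 0.15, and Nedd1, which brings the complex to the spindle, stood at 0.43 and Cdk5rap2 at 0.38. Dynein, dynactin and transport kinesins had 23 of 31 measured, with 0 past 2-fold and a median of 0.045, led by the kinesin heavy chain Kif5b at 0.40 and the dynactin subunit Dctn2 at 0.36. These motors walk on the polymer that the isotypes form. All that were measured stayed within 1.5-fold, as did most genes on the arrays, with 2.03% of all genes past it higher and 2.64% lower.

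Spindle genes had 17 of 27 measured, with 0 past 2-fold and a median of 0.030 that was below 0 in 1 of 12 alternatives. Kif20a, a kinesin of late mitosis, was 1.75-fold higher and Kif23, a further kinesin of cytokinesis, 1.51-fold lower. Cilium genes had 23 of 33 measured and a median of 0.14, with 0 past 2-fold higher and 1 lower. That 1 was Ift20, a carrier of cilium proteins from the Golgi, which went from 925 to 338 by 1 spot and was 2.10-fold lower. Its log2 ratio was -0.99 after correction by neighbouring spots, just inside 2-fold. Actin and intermediate filament genes, the other cytoskeletal systems, had 14 of 20 measured, 0 past 2-fold and a median of 0.023, below 0 in 2 of 12 alternatives. Actc1, cardiac actin, stood at -0.60 and Acta1, skeletal muscle actin, at -0.40. Genes that passed background with OS only have no ratio and stand outside these counts. The lowest signal that passed was higher on the melatonin array, so such genes need not be lower with melatonin. They numbered 2 each among modifying enzymes, microtubule-associated proteins, motors, spindle genes and cilium genes. The destabilisers, the γ-tubulin ring complex list and the actin and filament list had 1 each, and the folding list 0. In each of these lists 0 passed with melatonin only.

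**Figure D5:**
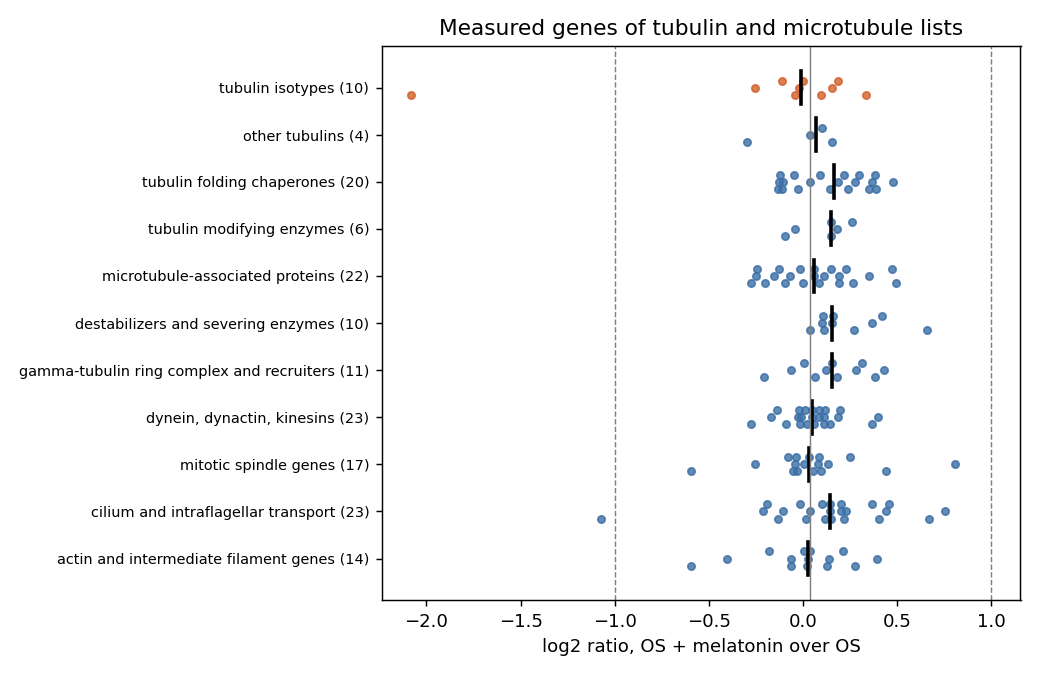
Log2 ratio of OS with melatonin over OS for each measured gene (points) of the tubulin isotypes and of 10 tubulin and microtubule lists, with the number measured in brackets and a bar at each list's median. The grey line is the median of all genes at 0.039, dashed lines mark 2-fold, and Tubb4a and Ift20 are the 2 genes past it.

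Markers of the cell types linked to these isotypes were set beside them. Of 17 mesenchyme and dental papilla markers 14 were measured and 10 lay above the array's 75th percentile with either medium, from the collagen gene Col1a1 at 87224 and 87637 down to Msx2, a tooth homeobox gene, at 53.6 and 55.7 among those measured. Dspp and Dmp1, the markers of mature odontoblasts, did not pass background on either. Of 13 neuron markers with a probe 4 were measured, namely Uchl1, Stmn2, Map2 and Nefm, the brightest being Uchl1 at 5484 and 4853. The other 9, among them Snap25, Syn1, Elavl3 and Elavl4, did not pass background on either. Tubb3, which is not on that list, was measured. The summed scaled signal of the neuron list was 25.3 and 27.8. Of 15 oligodendrocyte and Schwann cell markers 5 were measured, 4 above 0 and 1 below, and 2 passed with OS only. Their summed signal was 4.72 and 4.74, and the brightest was Egr2 at 1058 and 830. Over all genes 42.4% of those measured lay below 0, and 6.43% of those with a probe passed background with OS only against 0.132% with melatonin only. The lowest signal that passed was higher on the melatonin array, so counts with OS only are not counts of lower signals. Of 10 muscle markers 4 were measured, all below 0, and 6 passed with OS only. Their summed signal was 18.4 and 11.9, and 4.89 and 2.89 without Actc1. Of 10 macrophage markers 6 were measured, 5 of them below 0, and 1 passed with OS only (summed signal 3.90 and 2.92). Of 7 endothelial markers 3 were measured, all below 0, and 2 passed with OS only (7.48 and 6.58). Epithelial markers had 1 of 9 measured (1.90 and 2.37) and multiciliated cell markers 1 of 6. The part of any of these cell types in the Tubb4a ratio was not tested. In such cultures fewer cells of a type and less RNA per cell cannot be told apart.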

How the data were processed

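Each sample was 1 Cy3 array of Agilent design 028282. The intensity values are the deposited processed signals of Feature Extraction 11.0.1.1, background-subtracted per the file headers, and every log2 ratio was computed from them here unless the authors' deposited table is named. That table holds log2 values made by the authors with a normalization that the labels do not name, and served as an alternative. Here 937 spots with a feature-outlier flag were left out, signals were divided by each array's 75th percentile, log2 values were averaged over the spots of a probe, and a gene was the mean of its probes well above background on both arrays. Symbols came from accessions in the GRCr8 RefSeq table for 18000 of 30359 probes (59.3%). Ratios are melatonin over OS, and 2-fold was the threshold. The members and lists were chosen with earlier results of these data known. Named genes were all 10 isotypes, from each list the members past 2-fold or else the 2 with the largest ratios, and the 4 genes nearest to Tubb4a in ratio with a mean signal above the lower quartile. Atat1, Ttc5, Tubg1 and the markers were named after their values were seen. Feature Extraction's error model covers a spot, not a culture, and 2 arrays limit the precision. R 4.3.3 with limma 3.58.1 and Python 3.11.15 were used, and the ratio code was checked on simulated data. Some single marker genes are not reported here.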

Additional observations from a re-analysis of the deposited data

How the results depend on the processing

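No paired analysis was possible because each group had 1 array, and for the same reason no replicate could be left out. Tubb4a was the 1 isotype past 2-fold in every setting run, including 1.5-fold and 3-fold thresholds. Its log2 ratio ran from -2.12 to -2.04 over 12 alternatives of normalization, filter, background and probe choice. Of these, 2 (background-outlier spots also left out, correction by neighbouring spots) were chosen after seeing the data. The changes of filter and of probe choice could not move this ratio, since 1 probe with 1 spot, well above background, reads the gene. The rank of Tubb4a from the lowest ratio, 4, was 1 with normexp and 5 with quantile normalization. It was 9 with the scanner's positive-and-significant flag as filter and 15 without the filter on dim probes. The count of all genes at least 2-fold higher, 21, was 9 with normexp, 1860 without the filter on dim probes, 612 with the positive-and-significant flag, 167 at 1.5-fold and 3 at 3-fold. The count of genes lower, 58, was 35, 229, 155, 217 and 10 in the same order. The median of all genes moved from 0.039 to 0.16 without the filter on dim probes. The median of the tubulin modifying enzymes was -0.046 when genes below the lower quartile of signal were left out. Tubb5 changed sign in 2 of 11 alternatives and Tubb3 in 1, at -0.048 with normexp. The medians of 5 lists changed sign in some of the 12 alternatives: the isotypes in 3, modifying enzymes in 2, microtubule-associated proteins in 2, spindle genes in 1 and actin and intermediate filament genes in 2. Of 319 recomputed values 307 stayed within 1.5 times the main count or moved by less than the spread between spots. These include the single-probe ratios under the filter settings, which such a filter leaves unchanged.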
